A study of Mus musculus with 14 samples.

Results

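The p53 target genes Cdkn1a, Ccng1, Mdm2, Zmat3, Bax, Trp53inp1, Phlda3, Perp, Eda2r and Tnfrsf10b were followed in E12.5 mouse heads, taken whole. These 10 genes were chosen by name, as well-known targets of p53 in cell cycle arrest and cell death, and not by a rule on measured values. Each was read from the locus that carries its name, and where a name stood on several loci from the one with the highest mean. They are 10 of 67811 loci in the files and 10 of 18217 loci that passed a filter on low values, a level of at least 0.5 FPKM in at least 3 libraries. FPKM counts fragments per kilobase of transcript, scaled to the fragments of the library, so levels are given per length. The libraries came from Zcchc8-/- heads (KO, 6 libraries), Zcchc8+/- heads (HET, 3 libraries) and Zcchc8+/+ heads (WT, 5 libraries), all of strain C57BL/6J with no treatment. RNA was taken from the homogenized whole head, brain included, and sequenced after stranded selection of polyadenylated RNA. A whole head mixes many cell types, so fewer cells of a type and less RNA per cell cannot be told apart in any result here. The altered part of Zcchc8 was not given in the sources used here.

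ZCCHC8 holds together the nuclear exosome targeting (NEXT) complex. NEXT brings short-lived nuclear RNA, such as transcripts made upstream of promoters, to the RNA exosome, which degrades it. p53 is a transcription factor that is kept low by the ubiquitin ligase MDM2 and is stabilized by DNA damage, telomere loss and disturbed ribosome or RNA metabolism. Once stable it raises genes that stop the cell cycle, genes that kill the cell through mitochondria or death receptors, and Mdm2 itself, which closes a feedback loop. In the developing mouse head, neural progenitors and neural crest are known to be sensitive to p53. Levels of p53 protein were not measured, and Trp53 RNA is not a measure of p53 activity.

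p53 binds a pair of decamers that share a consensus half-site, and the half-site was searched for in RefSeq promoter windows of GRCm38.p6, which run from 250 bases before to 50 bases after a gene start. Windows were matched by symbol for 6 of the 10 genes, and 4 of their 7 windows held the half-site. Among all 32851 windows of that length, 8.36% held it. The half-site reads the same way on both strands, so a search of one covers the other. The windows of Cdkn1a, Mdm2 and Ccng1 are shown, because Cdkn1a fell in KO heads, RNA on the other strand was found just upstream of Ccng1, and a locus on the other strand spans Mdm2 and its start. Each is given on the strand of its gene, 5′ to 3′, with the half-sites in capitals.
Cdkn1a: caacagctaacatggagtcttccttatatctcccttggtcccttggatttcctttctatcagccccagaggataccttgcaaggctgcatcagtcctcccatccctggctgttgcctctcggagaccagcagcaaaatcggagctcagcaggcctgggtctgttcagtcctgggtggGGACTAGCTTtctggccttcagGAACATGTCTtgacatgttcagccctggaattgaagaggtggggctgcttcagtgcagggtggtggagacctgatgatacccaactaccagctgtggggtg
Mdm2: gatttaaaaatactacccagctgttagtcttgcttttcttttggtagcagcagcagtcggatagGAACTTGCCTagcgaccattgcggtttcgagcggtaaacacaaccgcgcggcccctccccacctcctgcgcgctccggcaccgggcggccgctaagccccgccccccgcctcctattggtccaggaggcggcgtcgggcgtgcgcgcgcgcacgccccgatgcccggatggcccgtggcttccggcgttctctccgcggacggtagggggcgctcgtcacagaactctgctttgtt
Ccng1: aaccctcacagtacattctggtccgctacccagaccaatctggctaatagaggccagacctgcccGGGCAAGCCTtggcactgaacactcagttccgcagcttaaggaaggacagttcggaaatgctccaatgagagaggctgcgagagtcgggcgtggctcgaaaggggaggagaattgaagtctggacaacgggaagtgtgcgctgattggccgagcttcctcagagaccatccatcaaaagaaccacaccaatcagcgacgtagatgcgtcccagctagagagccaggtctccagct
The Cdkn1a window (chr17:29090729-29091028, plus strand) held 2 half-sites, which start 73 and 51 bases before the gene start. The Mdm2 window (chr10:117710709-117711008, minus strand) held 1, at 186 bases before the start, and the Ccng1 window (chr11:40755237-40755536, minus strand) held 1, at 185 bases. The fourth was in the Bax window, where AGGCAAGCTT starts 201 bases before the gene start. The windows of Phlda3 and Eda2r and a second window of Cdkn1a held none. A match is a run of letters and says nothing of whether p53 was bound.

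Zcchc8, the targeted gene, was ordered by genotype as the labels have it. It averaged 15.5 ± 3.91 FPKM in KO heads (SD, n = 6), 25.7 ± 1.64 FPKM in HET heads (SD, n = 3) and 39.7 ± 2.32 FPKM in WT heads (SD, n = 5), and the difference of KO from WT was -1.39 log2 (SE 0.15, limma-trend adjusted p = 2.11e-06; two-sided exact permutation p = 0.00216). Of the cell type marker lists, surface epithelium, skeletal muscle, cartilage and head mesenchyme held 7 of 21, 4 of 15, 4 of 10 and 5 of 11 tested loci that were lower in KO than in WT heads. Among them head mesenchyme held 1 that was higher. Over all tested loci 5.61% were lower and 19.0% higher. Neuron, neural progenitor, endothelium, myeloid and erythroid lists held 2 lower and 2 higher loci between them. The neural progenitor markers Vim and Fabp7 and the neuron markers Stmn2 and Ina, the highest of their lists over the 14 libraries, were above 100 FPKM in every genotype mean. The files give no counts, so total depth is unknown.

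Trp53 (chromosome 11, 69554092 to 69591873, mm10), the gene of p53 itself, did not pass the test between genotypes. It averaged 73.3 ± 4.97 FPKM in KO heads (SD, n = 6), 78.7 ± 3.31 FPKM in HET heads (SD, n = 3) and 75.6 ± 2.15 FPKM in WT heads (SD, n = 5). The difference of KO from WT was -0.05 log2 (limma-trend adjusted p = 0.548). Trp53 was singled out after its values were seen.

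The 10 target genes did not move as a group in Zcchc8-/- heads. The locus of Tnfrsf10b also holds a noncoding RNA gene, and their fragments cannot be told apart. In KO against WT, this locus was higher, Cdkn1a and Perp were lower, and the other 7 genes did not pass the test. That is 1 of 10 higher and 2 of 10 lower, where 19.0% of all tested loci were higher and 5.61% lower, 24.6% in all (limma-trend, Benjamini-Hochberg adjusted p under 0.05 over 18217 loci). The differences were positive for 5 genes and negative for 5, with a median of 0.002 log2 beside -0.002 for all tested loci. At an unadjusted p under 0.05 the count was 6 of 10. The 95% intervals of the 7 genes that did not pass lay between -0.28 and 0.74 log2. All 10 were at or above 0.5 FPKM in every library, so none passed the filter through a single genotype. Without KO3, KO5 or KO6 a second gene was higher, Zmat3 or Eda2r. In the authors' deposited matrix 4 genes were higher and 0 lower, where 6969 of 17141 loci were higher and 269 lower.

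**Figure D1:**
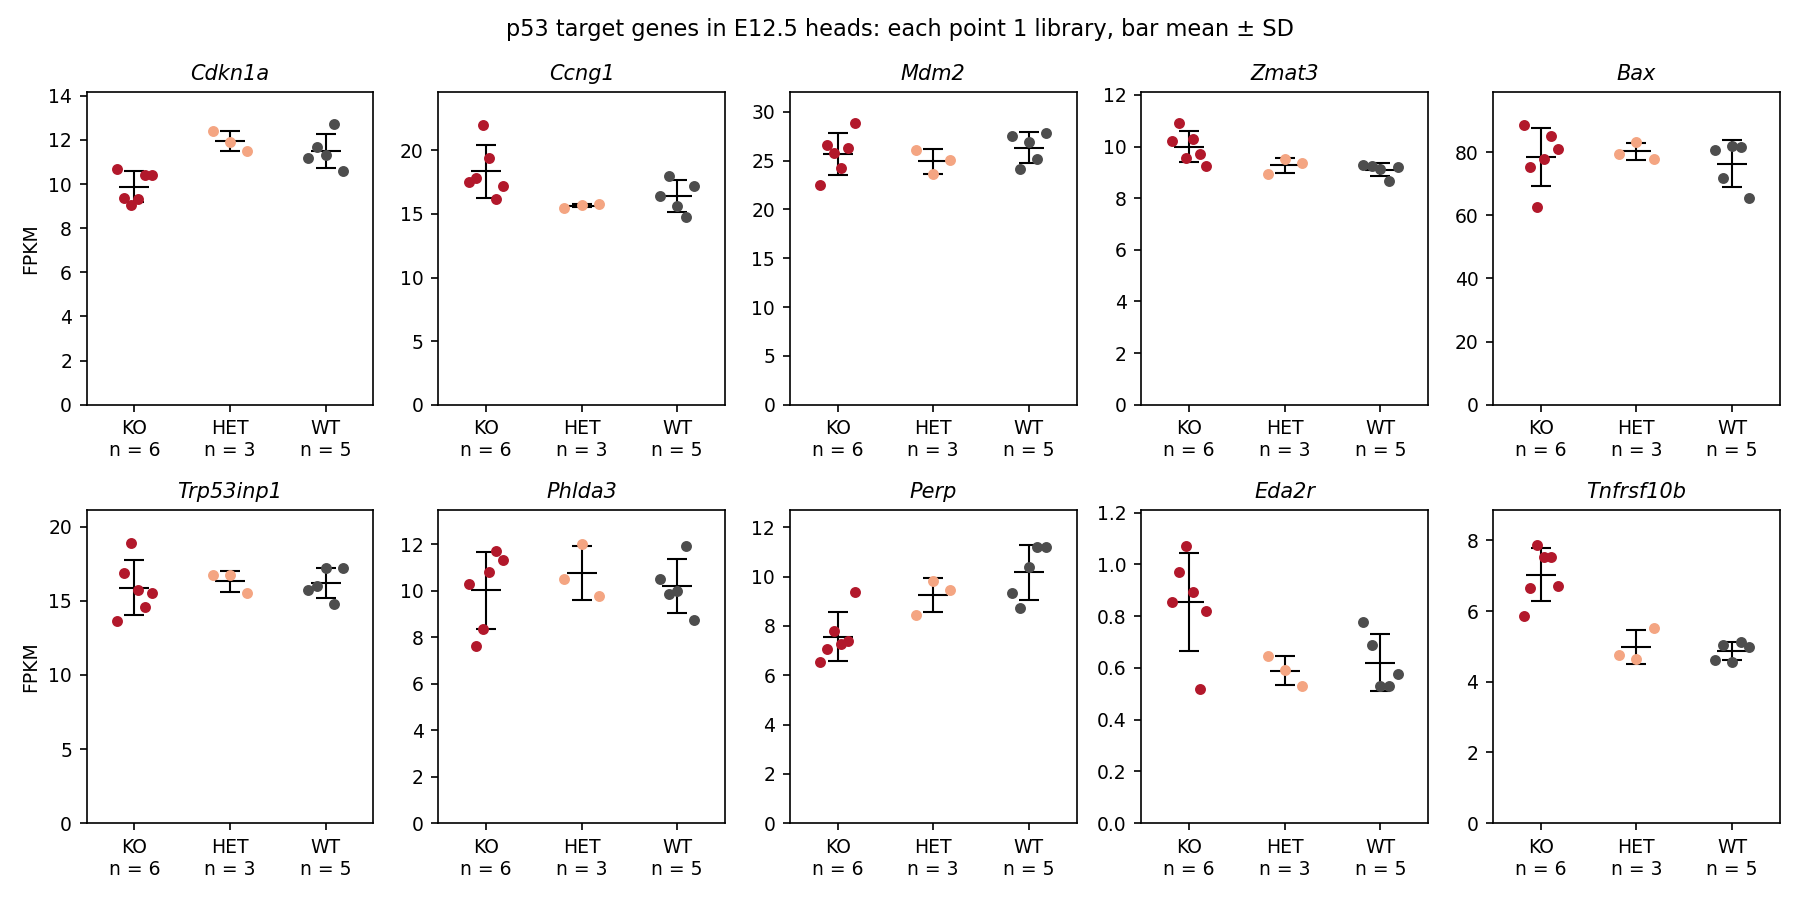
FPKM of each p53 target gene in every library, with KO, HET and WT from left to right; each point is 1 library and the bars give the mean ± SD. For the Tnfrsf10b locus, shared with a noncoding RNA gene, the 6 KO libraries, at 5.86 to 7.87 FPKM, lie above all HET and WT libraries. The KO libraries of Mdm2, Bax, Trp53inp1 and Phlda3 overlap those of HET and WT.

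Of the genes of cell cycle arrest, Cdkn1a fell and Ccng1 did not pass the test. Cdkn1a (chromosome 17, 29090979 to 29100722, mm10) encodes p21, the inhibitor of cyclin-dependent kinases through which p53 stops the cell cycle. Its FPKM ran from 9.06 to 10.7 with a median of 9.87 in KO libraries, was 12.4, 11.9 and 11.5 in HET libraries and was 11.2, 11.7, 11.3, 12.7 and 10.6 in WT libraries. Of the 6 KO libraries 5 were below every WT library, and all 6 were below every HET library. No gene of the 10 had every KO library below every WT library, which 1.99% of tested loci had. The KO mean was 85.9% of the WT mean. The difference was -0.22 log2 (SE 0.06, 95% interval -0.35 to -0.09, limma-trend adjusted p = 0.0137) from WT and -0.27 log2 (SE 0.07, adjusted p = 0.00938) from HET. The call against HET was lost without HET3, with -0.24 log2 and a limma-trend adjusted p of 0.0617. In the authors' deposited matrix, in which all tested loci together had a median difference of 0.2 log2 in KO against WT, the Cdkn1a difference was 0.09 log2 (limma-trend adjusted p = 0.441), or -0.11 log2 relative to that median.

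Some markers of head mesenchyme and skeletal muscle were lower in KO heads, where 5.61% of all tested loci were lower and 19.0% higher. Of 11 mesenchyme markers, none of them at 0 in any library, 5 were lower and 1 was higher. Their summed level was 837 to 1060 FPKM in KO, 1050 to 1100 FPKM in HET and 1010 to 1200 FPKM in WT libraries. Col1a2, the alpha-2 chain of type I collagen and one of these markers, averaged 169 ± 13.7 FPKM in KO heads (SD, n = 6), 218 FPKM in HET heads and 220 ± 16.7 FPKM in WT heads (SD, n = 5). Of 15 tested muscle markers 4 were lower, 0 were higher and 11 did not pass, and the sum over the muscle list was 44 to 246 FPKM in KO, 205 to 274 FPKM in HET and 173 to 332 FPKM in WT libraries. The part of these tissues in the Cdkn1a difference was not tested.

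Ccng1 (chromosome 11, 40748552 to 40755311, mm10) encodes cyclin G1, which recruits protein phosphatase 2A to MDM2. It ran from 16.2 to 22 FPKM with a median of 17.7 in KO libraries, was 15.5, 15.7 and 15.8 FPKM in HET libraries and was 16.4, 18, 15.6, 14.8 and 17.2 FPKM in WT libraries. The KO libraries overlapped the WT libraries and all lay above the HET libraries. The difference was 0.16 log2 (95% interval 0.0 to 0.32, limma-trend adjusted p = 0.138) from WT and 0.22 log2 (95% interval 0.04 to 0.4, adjusted p = 0.0844) from HET. The difference from HET passed the test without KO5, at 0.25 log2 and an adjusted p of 0.0391. In the authors' deposited matrix the difference was 0.39 log2 from WT (limma-trend adjusted p = 0.000651), or 0.19 log2 relative to the median of all loci there, and 0.42 log2 from HET (adjusted p = 0.00193).

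The feedback gene Mdm2 and the RNA-binding gene Zmat3 did not pass the test. Mdm2 (chromosome 10, 117688875 to 117711812, mm10) encodes the ubiquitin ligase that marks p53 for degradation. It ran from 22.5 to 28.8 FPKM with a median of 26.1 in KO libraries, was 26.1, 23.6 and 25.1 FPKM in HET libraries and was 27.5, 24.1, 26.9, 25.2 and 27.8 FPKM in WT libraries. The genotypes overlapped throughout. The difference of KO from WT was -0.03 log2 (limma-trend adjusted p = 0.757). Its 95% interval of -0.17 to 0.1 holds no rise of more than 0.1 log2 on this scaling. In the authors' deposited matrix the difference was 0.14 log2 (limma-trend adjusted p = 0.145), or -0.06 log2 relative to the median of all loci there.

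Zmat3 (chromosome 3, 32334792 to 32366014, mm10) encodes a zinc finger protein that binds AU-rich RNA. Its level was 9.24 to 10.9 FPKM with a median of 9.98 in KO libraries, 8.92, 9.51 and 9.37 FPKM in HET libraries and 9.29, 9.24, 9.13, 8.67 and 9.19 FPKM in WT libraries. Of the 6 KO libraries 5 lay above every WT library. KO heads differed from WT heads by 0.13 log2 (SE 0.05, 95% interval 0.02 to 0.24, limma-trend adjusted p = 0.0723). The difference passed the test without KO3 (0.14 log2, adjusted p = 0.0468) and without KO6 (0.15 log2, adjusted p = 0.0408), both by limma-trend. In the authors' deposited matrix it was 0.47 log2 (limma-trend adjusted p = 0.000179), or 0.27 log2 relative to the median of all loci there.

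Among the genes of cell death, Bax, Trp53inp1 and Phlda3 did not pass the test and Perp fell. Bax encodes the pore-forming protein of the outer mitochondrial membrane. Its locus (chromosome 7, 45461697 to 45526268, mm10) also carries the names Dhdh and RP23-218K15.5, whose fragments cannot be told apart from those of Bax. It ran from 62.7 to 88.8 FPKM with a median of 79.6 in KO libraries, was 79.6, 83.3 and 78.0 FPKM in HET libraries and was 80.6, 72.0, 82.1, 81.8 and 65.4 FPKM in WT libraries. The genotypes overlapped, and the difference of KO from WT was 0.04 log2 with a 95% interval of -0.14 to 0.22 (limma-trend adjusted p = 0.803).

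Trp53inp1 (chromosome 4, 11152872 to 11175086, mm10) encodes a stress protein that binds kinases of p53 and acts in autophagy. It averaged 15.9 ± 1.85 FPKM in KO heads (SD, n = 6), 16.3 ± 0.694 FPKM in HET heads (SD, n = 3) and 16.2 ± 1.05 FPKM in WT heads (SD, n = 5). The KO libraries spread on both sides of the WT libraries, from 13.6 to 18.9 FPKM against 14.8 to 17.2 FPKM. The difference was -0.03 log2 with a 95% interval of -0.19 to 0.13 (limma-trend adjusted p = 0.808). In the authors' deposited matrix it was 0.21 log2 (limma-trend adjusted p = 0.0497), or 0.01 log2 relative to the median of all loci there.

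Phlda3 (chromosome 1, 135766119 to 135769136, mm10) encodes a pleckstrin homology protein that competes with the survival kinase AKT for membrane lipids. It averaged 10 ± 1.66 FPKM in KO heads (SD, n = 6), 10.7 ± 1.13 FPKM in HET heads (SD, n = 3) and 10.2 ± 1.13 FPKM in WT heads (SD, n = 5). Of the KO libraries 2 were below every WT library and none was above. The difference was -0.04 log2 with a 95% interval of -0.28 to 0.21 (limma-trend adjusted p = 0.865), the widest interval among the 10 genes apart from that of Eda2r.

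Perp (chromosome 10, 18845020 to 18857073, mm10) fell, by more than Cdkn1a. It encodes a membrane protein of desmosomes in stratified epithelia and is a target of p63 as well as of p53. Its level was 6.54 to 9.38 FPKM with a median of 7.32 in KO libraries, 8.46, 9.82 and 9.46 FPKM in HET libraries and 9.33, 8.71, 10.4, 11.2 and 11.2 FPKM in WT libraries. Of the 6 KO libraries 5 were below every WT and every HET library, and KO6 lay within the WT range. The KO mean was 74.6% of the WT mean, a difference of -0.42 log2 (SE 0.09, 95% interval -0.62 to -0.22, limma-trend adjusted p = 0.0025). The difference from HET was -0.29 log2 (SE 0.11, adjusted p = 0.0669) and passed the test without KO6, at -0.35 log2 and an adjusted p of 0.0118. In the authors' deposited matrix the difference from WT was -0.07 log2 (limma-trend adjusted p = 0.648), or -0.27 log2 relative to the median of all loci.

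Of 21 markers of surface epithelium, the tissue in which Perp is best known, 7 were lower in KO heads, 0 were higher and 14 did not pass. All were tested and none was at 0 in any library. Among all tested loci 5.61% were lower and 19.0% higher. The 7 were the keratins Krt5, Krt14, Krt15 and Krt17, the desmosome genes Pkp1 and Dsc3, and Trp63, which are listed after their values were seen. Krt5 averaged 20.3 ± 2.58 FPKM in KO heads (SD, n = 6), 32.2 FPKM in HET heads and 34.4 ± 5.51 FPKM in WT heads (SD, n = 5), a difference of -0.76 log2 (limma-trend adjusted p = 3.11e-05). Jup, plakoglobin of desmosomes and adherens junctions, averaged 26.4 ± 3.6 FPKM in KO heads (SD, n = 6), 30.0 FPKM in HET heads and 29.5 ± 1.12 FPKM in WT heads (SD, n = 5), with an adjusted p of 0.158. The sum over the 21 markers was 139 to 168 FPKM in KO, 185 to 191 FPKM in HET and 169 to 221 FPKM in WT libraries, so KO and WT libraries did not overlap. Per 100 FPKM of that sum, Perp averaged 5.07 ± 0.492 FPKM in KO heads (SD, n = 6), 4.91 ± 0.307 FPKM in HET heads (SD, n = 3) and 5.32 ± 0.374 FPKM in WT heads (SD, n = 5). This ratio did not pass between KO and WT (two-sided exact permutation p = 0.407), which with 6 and 5 libraries does not show that it was equal. The markers in the sum did not move alike, with -0.03 log2 for Krt8 and 0.02 log2 for Krt18 beside -0.76 log2 for Krt5. Whether the epithelium is a cause of the fall of Perp was not tested.

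**Figure D2:**
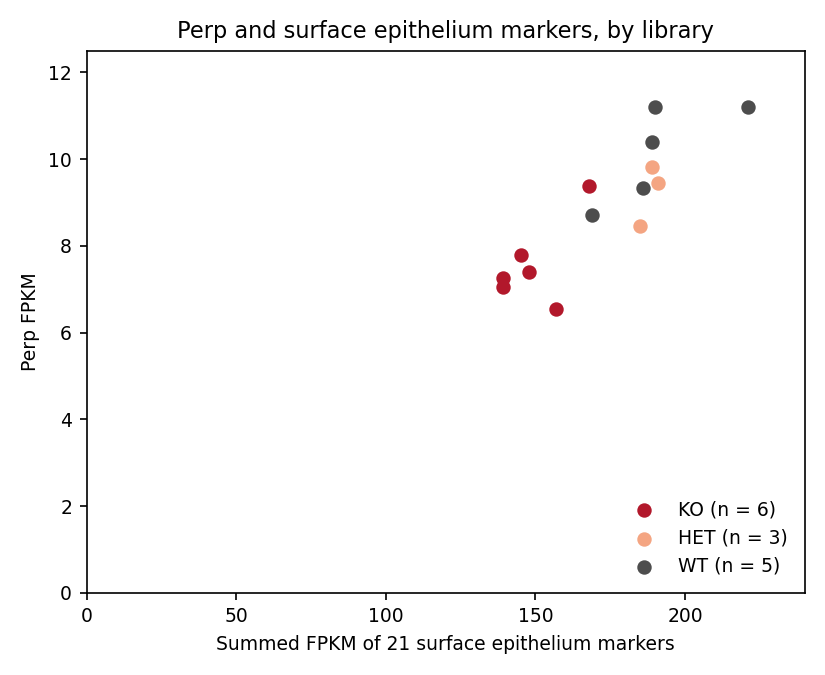
Perp FPKM in each library against the summed FPKM of 21 surface epithelium markers, coloured by genotype. The KO libraries have the lowest marker sums, 139 to 168 FPKM against 169 to 221 FPKM in WT libraries. On the Perp axis KO6, at 9.38 FPKM, lies above WT1 at 9.33 FPKM and WT2 at 8.71 FPKM, and the other KO libraries lie below all WT libraries.

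Of the members of the tumour necrosis factor receptor family, the Tnfrsf10b locus rose and Eda2r did not pass the test. Tnfrsf10b encodes the mouse death receptor for the ligand TRAIL. Its locus (chromosome 14, 69732784 to 69805636, mm10) had 5.86 to 7.87 FPKM with a median of 7.11 in KO libraries, 4.76, 4.65 and 5.53 FPKM in HET libraries and 4.61, 5.03, 4.56, 5.12 and 4.97 FPKM in WT libraries. Every KO library was above every WT and every HET library, and among all tested loci 15.3% had every KO library above every WT library. The KO mean was 145% of the WT mean, a difference of 0.52 log2 (SE 0.08, 95% interval 0.35 to 0.69, limma-trend adjusted p = 9.73e-05). The difference from HET was 0.49 log2 (SE 0.09, adjusted p = 0.000894). The locus carries a second name, 4930480K23Rik, a long intergenic noncoding RNA gene on the same strand that spans 69732784 to 69767113 in GENCODE M21 and ends 358 bases before the Tnfrsf10b gene (69767472 to 69784411). Fragments of the noncoding RNA and of Tnfrsf10b messenger RNA cannot be told apart in this value.

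Eda2r (chromosome X, 97333840 to 97377216, mm10) encodes a receptor for a form of ectodysplasin and was the gene of lowest level. It had 0.518 to 1.07 FPKM with a median of 0.872 in KO libraries, 0.644, 0.591 and 0.531 FPKM in HET libraries and 0.778, 0.687, 0.529, 0.53 and 0.578 FPKM in WT libraries. Of the 6 KO libraries 5 were above every WT library, and KO5 was below every WT library. The difference was 0.39 log2 (SE 0.16, 95% interval 0.04 to 0.74, limma-trend adjusted p = 0.0984), and without KO5 it passed the test at 0.51 log2 and an adjusted p of 0.0103. After quantile normalization it was -0.51 log2 (limma-trend adjusted p = 0.215), so its sign depends on the scaling.

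**Figure D3:**
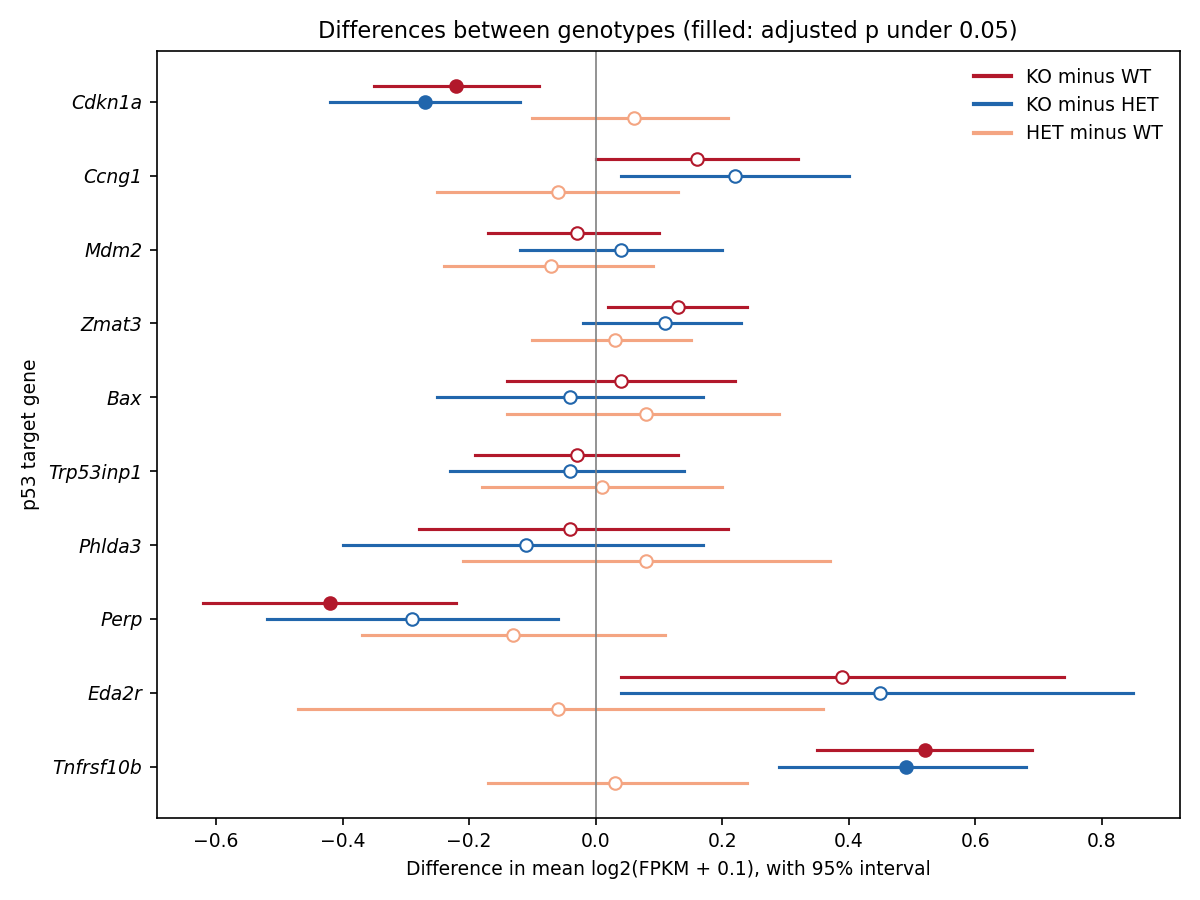
Differences in mean log2(FPKM + 0.1) between genotypes for the 10 p53 target genes, with 95% intervals; filled points passed an adjusted p of 0.05. For KO minus WT, the Tnfrsf10b locus, shared with a noncoding RNA gene, at 0.52 log2 and Perp at -0.42 log2 lie farthest from 0. Every interval for HET minus WT crosses 0.

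Loss of 1 Zcchc8 copy left no difference that passed the test among the 10 genes. In HET against WT, 0 of 10 were higher and 0 lower (limma-trend, 0 at an unadjusted p under 0.05), where 0.00549% of all tested loci, 1 locus, were higher and 0.00% lower. The largest difference in size was that of Perp, -0.13 log2 with a 95% interval of -0.37 to 0.11. Over the 10 genes the intervals reached from -0.47 to 0.37 log2, so a difference inside them cannot be told from none with 3 HET libraries. Zcchc8 itself did not pass the adjusted limma-trend test in HET against WT, at -0.62 log2 (two-sided exact permutation p = 0.0179). Its HET libraries, at 24 to 27.2 FPKM, all lay below its WT libraries, at 36.6 to 42.3 FPKM. The lack of a call in HET heads therefore does not show that a gene was unchanged. In KO against HET, 17.9% of tested loci were higher and 4.36% lower, 22.3% in all. This comparison, which shares its KO libraries with KO against WT, had the Tnfrsf10b locus higher, Cdkn1a lower and 8 genes that did not pass. Of these counts, that of higher genes was 3 without KO5, and that of lower genes was 0 without HET3 and 2 without KO6.

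RNA on the other strand appeared at 3 of the 10 genes in KO heads, while the genes themselves did not pass the test. Strand was read from the order of loci in the files, in which loci of the plus strand come before those of the minus strand. Within 10 kb of the 10 loci lay 41 others, of which 21 were tested and 5 were higher in KO than in WT. Of these, 4 lay on the other strand, at Mdm2, Trp53inp1 and Ccng1. Among all 16213 tested loci with a gene name, 20.8% had a locus on the other strand within 10 kb that was higher, and 32.7% had one on any strand. Such loci are thus common and not particular to the 10 genes. The log2 differences of these low loci depend on the 0.1 FPKM that was added before the logarithm.

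A second locus named Mdm2 covers the same range as Mdm2 on the plus strand, opposite to the gene, and that range reaches 1054 bases upstream of the gene start. It had 1.14 to 1.93 FPKM with a median of 1.46 in KO libraries, 0.0395, 0 and 0.0478 FPKM in HET libraries and 0.0312, 0.0357, 0.0203, 0.00863 and 0.0271 FPKM in WT libraries. The KO libraries stood far above all others, at 5.75% of the Mdm2 level in KO. The difference from WT was 3.65 log2 (SE 0.18, limma-trend adjusted p = 4.83e-10) and that from HET 3.61 log2 (SE 0.21).

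A second locus named Trp53inp1 likewise lies on the minus strand, opposite to the gene, in a range that reaches 3559 bases upstream of its start. It had 1.56 to 2.84 FPKM with a median of 2.14 in KO libraries, 0.00816, 0.0438 and 0.0328 FPKM in HET libraries and 0.0214, 0, 0.0208, 0.0178 and 0 FPKM in WT libraries. Its level in KO was 13.7% of that of Trp53inp1. The difference from WT was 4.33 log2 (SE 0.18, limma-trend adjusted p = 9.22e-11) and that from HET 4.14 log2 (SE 0.21).

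At Ccng1 the other strand held a locus without a gene name, of 555 bases (chromosome 11, 40755427 to 40755981, mm10), which starts 116 bases upstream of the Ccng1 start. The half-site shown in capitals in the Ccng1 window, at 40755462 to 40755471, lies inside it. It had 0.94 to 2.65 FPKM with a median of 1.68 in KO libraries, 0, 0.0242 and 0 FPKM in HET libraries and 0, 0, 0.0599, 0 and 0 FPKM in WT libraries. All KO libraries had RNA here, while WT3 and HET4 were the only others above 0. The difference from WT was 4.08 log2 (SE 0.25, limma-trend adjusted p = 4.46e-09), and the level in KO was 10.1% of that of Ccng1.

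The other 2 neighbouring loci that were higher were present in every genotype. A locus named Ccne2, 1 of 2 loci of that name and range, lies on the minus strand beyond the 3′ end of Trp53inp1 (chromosome 4, 11176072 to 11254258). It averaged 2.55 ± 0.318 FPKM in KO heads (SD, n = 6), 1.79 ± 0.224 FPKM in HET heads (SD, n = 3) and 1.92 ± 0.251 FPKM in WT heads (SD, n = 5). Its difference of 0.39 log2 (limma-trend adjusted p = 0.0171) did not pass after quantile normalization (0.09 log2, adjusted p = 0.554), with the replicate number as a block (0.36 log2, adjusted p = 0.0551) or without WT2 (0.32 log2, adjusted p = 0.0547). AC151602.15, on the same strand as Bax and beside the upstream end of the locus that Bax shares (chromosome 7, 45526330 to 45589711), averaged 1.49 ± 0.261 FPKM in KO heads (SD, n = 6), 0.774 ± 0.336 FPKM in HET heads (SD, n = 3) and 0.483 ± 0.149 FPKM in WT heads (SD, n = 5), a difference of 1.46 log2 (limma-trend adjusted p = 5.76e-05). Beside Phlda3, unnamed loci at 135764216 to 135765012 and at 135769310 to 135771783 of chromosome 1 averaged 0.0488 and 0.12 FPKM in KO heads, too low to be tested. The first had 0.0512 FPKM in KO1, 0.0421 FPKM in KO3 and 0.2 FPKM in KO6, and the second 0.72 FPKM in KO3 alone. Both were listed at 0 in all other libraries, HET and WT included. They were chosen after their values were seen.

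**Figure D4:**
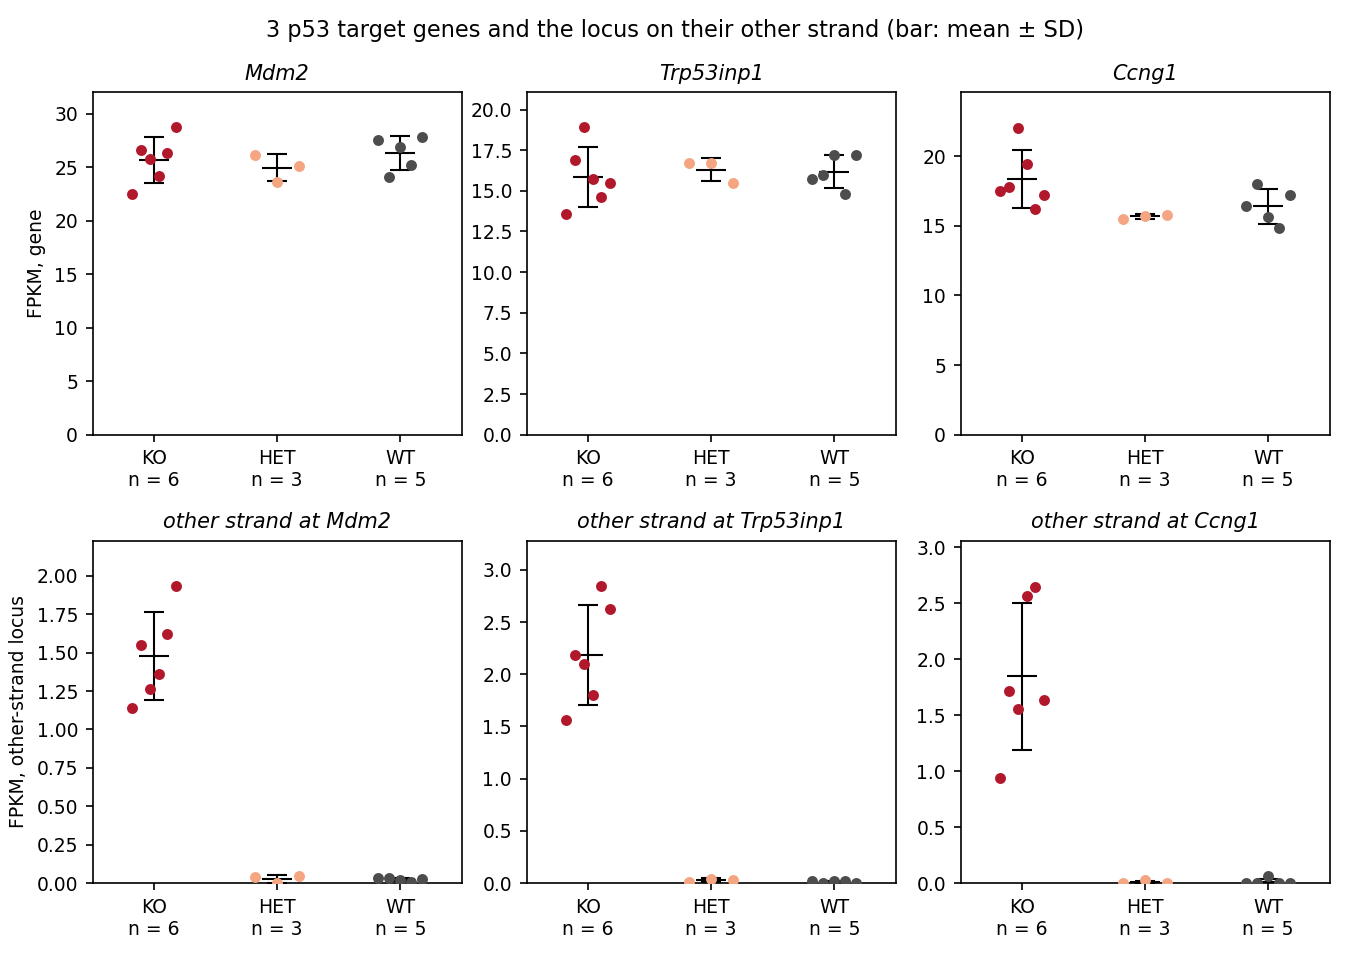
FPKM of Mdm2, Trp53inp1 and Ccng1 (upper row) and of the locus on their other strand (lower row) in every library, with KO, HET and WT from left to right; points are libraries and bars the mean ± SD. In the upper row KO and WT libraries overlap, while for Ccng1 all KO libraries lie above the HET libraries. In the lower row the KO libraries, at 0.94 to 2.84 FPKM, stand above HET and WT libraries at 0 to 0.0599 FPKM.

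Few further genes of the p53 pathway passed the test, where 19.0% of all tested loci were higher and 5.61% lower. Of 12 further targets in cell death, all tested, 0 were higher and 1 was lower, with a median of 0.015 log2. The 1 was Dapk1, a death-associated kinase, at 19.2 ± 0.745 FPKM in KO heads (SD, n = 6), 21.7 ± 0.29 FPKM in HET heads (SD, n = 3) and 21 ± 1.07 FPKM in WT heads (SD, n = 5), a difference of -0.13 log2 (limma-trend adjusted p = 0.045). Casp6, an executioner caspase whose locus is shared with Pla2g12a, differed by -0.13 log2 (adjusted p = 0.0897).

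Of 23 further targets in arrest and metabolism 21 were tested, 0 were higher and 2 were lower, with a median of -0.088 log2. Plk2, a polo-like kinase, was at 48.6 ± 2.54 FPKM in KO heads (SD, n = 6), 53 ± 1.47 FPKM in HET heads (SD, n = 3) and 54.9 ± 2.21 FPKM in WT heads (SD, n = 5), a difference of -0.18 log2 (limma-trend adjusted p = 0.0068). Sesn1, sestrin 1, which restrains the growth kinase mTORC1, was at 13.0 ± 1.28 FPKM in KO heads (SD, n = 6), 15.7 ± 0.551 FPKM in HET heads (SD, n = 3) and 15.4 ± 0.604 FPKM in WT heads (SD, n = 5), a difference of -0.24 log2 (adjusted p = 0.00898). Of 9 further targets in DNA repair 0 were higher and 0 lower by limma-trend, 0 of them at an unadjusted p under 0.05, with a median of 0.029 log2. The smallest p values there were those of Polk, a translesion polymerase, at -0.21 log2 (adjusted p = 0.233), and of Ddb2, which recognizes ultraviolet damage, at -0.14 log2 (adjusted p = 0.253). Over these 3 lists the count of lower genes was 3 of 42 tested, beside 5.61% of all tested loci. It was 5 without KO2, 6 after quantile normalization and 0 in the authors' deposited matrix. The count of higher genes was 0, and it was 2 without KO3, 1 without WT5, 1 after quantile normalization and 20 in that matrix. Of 17141 loci there, 6969 were higher and 269 lower.

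Of 26 genes of the p53 family and its regulators 25 were tested, with a median of -0.024 log2. Of these, 0 were higher and 1 was lower, beside 19.0% and 5.61% of all tested loci. The 1 was Trp63, the gene of p63, the p53 relative that founds stratified epithelium, at 3.77 ± 0.606 FPKM in KO heads (SD, n = 6), 4.71 ± 0.305 FPKM in HET heads (SD, n = 3) and 4.79 ± 0.351 FPKM in WT heads (SD, n = 5). It differed by -0.35 log2 (limma-trend adjusted p = 0.0165) and is also counted among the surface epithelium markers. Trp73, the gene of the relative p73, was at 2.03 ± 0.453 FPKM in KO heads (SD, n = 6), 2.49 ± 0.0465 FPKM in HET heads (SD, n = 3) and 2.53 ± 0.235 FPKM in WT heads (SD, n = 5), a difference of -0.32 log2 (adjusted p = 0.076). The count of lower genes was 2 without KO2, 0 in the authors' matrix and 2 after quantile normalization. That of higher genes was 1 without KO5 and 10 in the authors' matrix, which had 6969 of 17141 loci higher and 269 lower.

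Genes of mitosis, which p53 is known to lower through p21 and the DREAM repressor complex, held 4 higher and 0 lower loci among 30 tested, with a median of 0.113 log2. Of all tested loci 19.0% were higher, and of the 16213 with a gene name 2147 were. The 30 differences were positive for 28 loci and negative for 2. Mki67, the proliferation antigen Ki-67, was at 47.3 ± 4.49 FPKM in KO heads (SD, n = 6), 38.5 ± 1.87 FPKM in HET heads (SD, n = 3) and 40.7 ± 2.4 FPKM in WT heads (SD, n = 5), a difference of 0.21 log2 (limma-trend adjusted p = 0.0277). Cenpf, a kinetochore protein, differed by 0.31 log2 (adjusted p = 0.0379), the locus of Top2a, a topoisomerase, by 0.19 log2 (adjusted p = 0.043), and that of Ccnb1, cyclin B1, by 0.14 log2 (adjusted p = 0.0499). The Top2a locus is shared with Gm23451 and the Ccnb1 locus with Cenph. The count of 4 was 0 with libraries scaled to a common median, 0 without the filter, 2 with the stricter filter, 1 with sex as a covariate and 26 in the authors' matrix. It was 0 without KO2 or WT3, 1 without KO1, WT1 or WT4, 2 without KO4, HET4, WT2 or WT5, and 7 without KO5. In the authors' matrix 6969 of 17141 loci were higher.

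Of 20 genes of the integrated stress response, which is raised when translation initiation is curbed, 19 had a locus and were tested. None was higher and 1 was lower, beside 19.0% and 5.61% of all tested loci, with a median of -0.079 log2. Vldlr, the very low density lipoprotein receptor, was at 5.35 ± 0.574 FPKM in KO heads (SD, n = 6), 6.6 ± 0.202 FPKM in HET heads (SD, n = 3) and 6.32 ± 0.444 FPKM in WT heads (SD, n = 5), a difference of -0.24 log2 (limma-trend adjusted p = 0.025). Its call was lost with the replicate number as a block and without KO4, WT1 or WT3, where the count was 0. Without KO1 the count was 2, after quantile normalization 6 were lower, and in the authors' matrix 3 were higher. That matrix had 6969 of 17141 loci higher. Chac1, which degrades glutathione, differed by -0.35 log2 (adjusted p = 0.12).

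**Figure D5:**
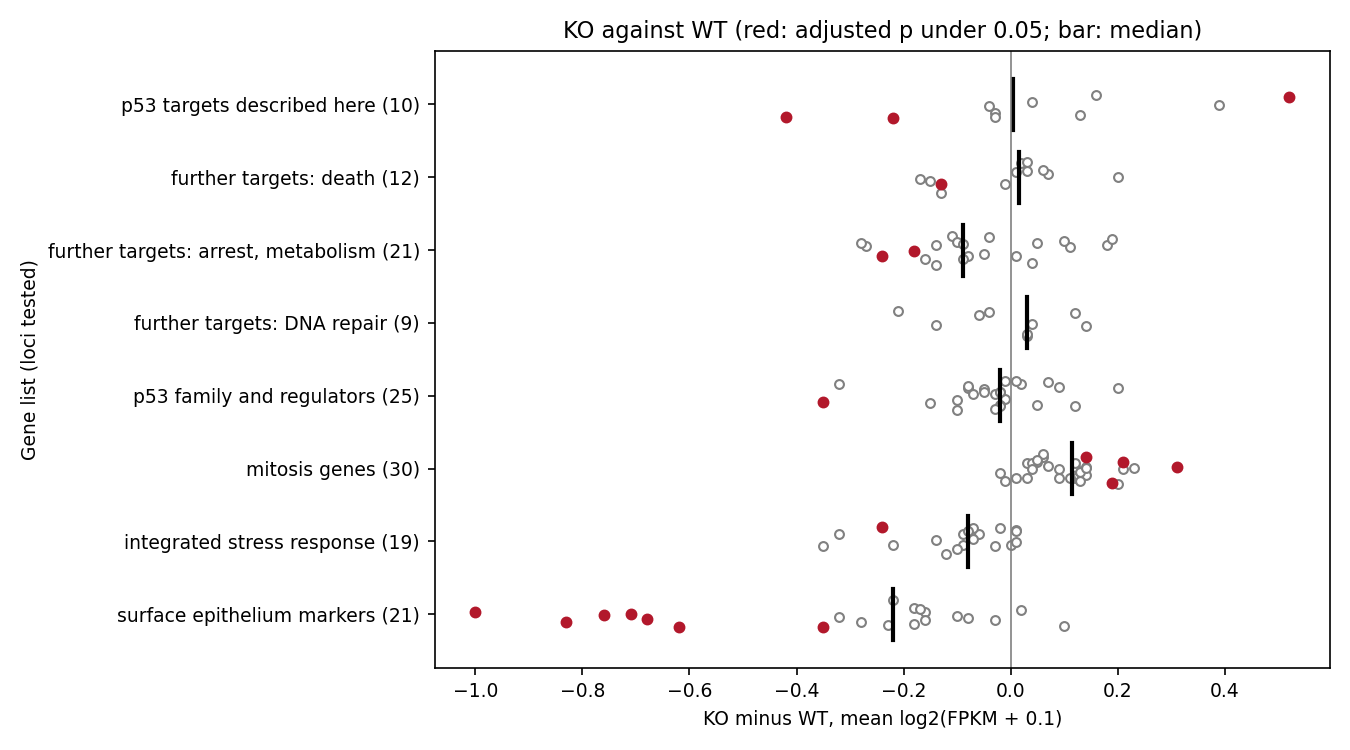
KO minus WT differences in mean log2(FPKM + 0.1) for the tested loci of 8 gene lists; each point is 1 locus, red points passed an adjusted p of 0.05 and black bars are list medians. The 3 lists of further targets hold no red point above 0, and 7 red points of the surface epithelium markers lie between -1.0 and -0.35 log2.

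Second loci of the same name were also tested at 4 genes of these lists, which were chosen after their values were seen. A second locus of Mdm4, a p53 inhibitor, lies on the other strand and averaged 0.593 ± 0.204 FPKM in KO heads (SD, n = 6), 0.0522 ± 0.0173 FPKM in HET heads (SD, n = 3) and 0.0264 ± 0.0291 FPKM in WT heads (SD, n = 5). A second Ckap2 locus, also on the other strand, averaged 0.6 ± 0.122 FPKM in KO heads (SD, n = 6), 0.0392 ± 0.0174 FPKM in HET heads (SD, n = 3) and 0.0178 ± 0.0328 FPKM in WT heads (SD, n = 5). A second Trim28 locus, for which no strand could be read, averaged 2.28 ± 0.453 FPKM in KO heads (SD, n = 6), 0.137 ± 0.0571 FPKM in HET heads (SD, n = 3) and 0.0996 ± 0.0372 FPKM in WT heads (SD, n = 5). In each of these 3 loci every KO library was above every HET and every WT library. Among all tested loci 15.3% had every KO library above every WT library, so this is not particular to these genes. A second Vldlr locus, on the other strand, was listed at 0 in most libraries and did not pass the test, at 0 to 2.11 FPKM in KO libraries, 0 to 0.238 FPKM in HET libraries and 0 to 17.3 FPKM in WT libraries (-1.25 log2, limma-trend adjusted p = 0.612).

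The 10 genes covered a wide range of levels. In WT heads the order by mean FPKM was the Bax locus at 76.4 ± 7.41, Mdm2 at 26.3 ± 1.61, Ccng1 at 16.4 ± 1.26, Trp53inp1 at 16.2 ± 1.05, Cdkn1a at 11.5 ± 0.77, Phlda3 at 10.2 ± 1.13, Perp at 10.2 ± 1.11, Zmat3 at 9.1 ± 0.251, the Tnfrsf10b locus at 4.86 ± 0.255 and Eda2r at 0.62 ± 0.109 (SD, n = 5). Bax, Mdm2, Tnfrsf10b and Eda2r did not overlap their neighbours in this order. Ccng1 overlapped Trp53inp1, Cdkn1a overlapped Phlda3 and Perp, and Zmat3 overlapped both of these. The spread between KO libraries was widest for Eda2r, with a coefficient of variation of 21.9% in KO and 17.6% in WT, and narrowest for Zmat3, with 5.97% in KO and 2.76% in WT.

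Within genotypes the 10 genes did not vary together. Over the 45 pairs, the correlation of their deviations from the genotype means across the 14 libraries had a median of -0.15 and was positive in 18 pairs. Cdkn1a, Bax and Phlda3 varied together, with r of 0.73 for Cdkn1a and Bax, 0.72 for Bax and Phlda3 and 0.71 for Cdkn1a and Phlda3. Bax and Ccng1 varied in opposite ways, with r of -0.83, as did Bax and Trp53inp1, with -0.78. All values of a library share its depth and its tissue, and these correlations are given as a description.

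Loci whose pattern was most like that of each gene were found by Pearson's r of log2(FPKM + 0.1) over the 14 libraries among 16212 other named loci. For Tnfrsf10b they were B930094E09Rik (r = 0.972), Zfp563 (r = 0.967) and Oxr1 (r = 0.967), read from loci that averaged 0.557 to 0.669 FPKM in KO heads and 0.0015 to 0.09 FPKM in WT heads. The nearest to Cdkn1a were Pla2g15 (r = 0.961), Itm2c (r = 0.96) and Col1a2 (r = 0.951), and the nearest to Perp were Fosl2 (r = 0.921), Srd5a3 (r = 0.917) and Slc39a14 (r = 0.896). Mdm2 was nearest to Tmem136 (r = 0.952), Ccng1 to Cacul1 (r = 0.969), Trp53inp1 to Zfp81 (r = 0.94), Bax to Fscn1 (r = 0.92), Zmat3 to Plagl2 (r = 0.904) and Eda2r to H2-T24 (r = 0.916). Among the nearest to Phlda3 was Rps26 (r = 0.926). None of the nearest 3 loci of any of the 10 genes was another of the 10.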

How the data were processed

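Polyadenylated RNA of 14 E12.5 mouse heads was sequenced after stranded library preparation, per the labels' protocols. The submitters' processing notes name TopHat2 2.1.0, FastQC 0.10.0, Cuffdiff, Partek, bcl2fastq and mm10 as the build, without their roles. The strand setting of the counting and the gene models were not given in the sources used here. FPKM values of 67811 loci were deposited by the authors, a table for each library, beside a matrix of log2 FPKM values, quantile normalized as its columns share their quartiles, which is blank where FPKM is 0 and was used only as an alternative. No counts are given, so depth is unknown, and no interval for counting error could be had.

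Values were analysed as log2(FPKM + 0.1), and differences are on that scale, which understates changes of low loci. Loci with at least 0.5 FPKM in at least 3 libraries (18217) were tested with limma-trend (limma 3.58.1, R 4.3.3, robust moderation) in 1 fit with a mean for each genotype and all 14 libraries, adjusted by Benjamini-Hochberg over all of them at a threshold of 0.05. Zcchc8 and the ratio of Perp to the epithelium sum were also compared by exact permutation (scipy 1.17.1, Python 3.11.15, pandas 2.3.3, numpy 2.4.6), and figures drawn with matplotlib 3.10.9. No member fell under the filter, so the permutation test planned for such members was not needed. No label says that each library is from a separate embryo, and p-values then measure only the spread between these samples.

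Loci are ranges of mm10, written from 1, that can hold several genes. Within a chromosome of the files, starts run up and then begin again. Of 11241 loci with 1 name in the first run, 99.0% are on the plus strand in GENCODE M21, and of 11316 in the second, 98.8% are on the minus strand, so a locus took the strand of its run. Loci within 10 kb of a member locus were examined. Gene spans came from GENCODE M21 and promoter windows from RefSeq, both of the same build.

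The members and the 16 gene lists were chosen with earlier results of these data known. Named genes are the members, Zcchc8, the called loci of each pathway list (or the 2 of smallest p), the 2 marker genes of highest level, called neighbours within 10 kb and the 3 loci most like each member, of which not all are reported here. Of the named and listed genes 5 had no locus and are not analysed here. The fit was tested on simulated data over 18217 loci, of which 67 were changed by 0.5 log2, 67 by 1 log2 and 66 by 2 log2. In the data 24.6% of loci were called in KO against WT. With so few changed loci the adjustment is stricter, so the shares found below do not carry over to the data. For KO against WT it found 56.7% of changes made at 0.5 log2, 79.1% at 1 log2 and 90.9% at 2 log2, and made 9 false calls. For HET against WT it found 35.8%, 70.1% and 92.4% at these sizes and made 7 false calls. Alternatives were other pseudocounts, filters and scalings, the authors' matrix, the replicate number as a block, sex read from Xist and Y-linked RNA as a covariate, fits of the compared genotypes alone and leaving out each library.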

Additional observations from a re-analysis of the deposited data

Results flagged for a closer look

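In 2 of 32 groups of 5 or 6 libraries, 1 library stood apart by Dixon's 95% criterion, which chance gives in about 1 in 20 groups. WT4 was the lowest of the WT libraries for Zmat3, at 8.67 FPKM. WT3 was the highest of the WT libraries for the unnamed other-strand locus at Ccng1, at 0.0599 FPKM, where the other 4 WT libraries were listed at 0. With those 4 equal, any value above 0 meets the criterion, and the rate of 1 in 20 does not hold for such a group. No explanation was tested for either.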

How the results depend on the processing

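Of 1460 recomputed values 1315 kept their direction and their side of the threshold, or stayed within 1.5 times for counts. Of the single differences, those of the members, Zcchc8 and the called neighbours, 838 did so, 6 no longer passed, 14 newly passed and 26 changed sign, 12 of these with 1 library left out. Of the 26, only Cdkn1a in KO against WT passed in the fit as reported, and only Trp53inp1 in KO against WT passed under the alternative. With the authors' matrix as input, the KO against WT difference changed sign to 0.09 log2 for Cdkn1a, 0.14 for Mdm2, 0.21 for Trp53inp1 and 0.28 for Phlda3, the KO against HET difference to 0.04 for Bax, 0.17 for Trp53inp1, 0.15 for Phlda3 and 0.02 for Perp, and the HET against WT difference to 0.06 for Eda2r. After quantile normalization Eda2r was at -0.51 log2 in both KO comparisons. With the replicate block the HET against WT difference changed sign to -0.02 for Trp53inp1, 0.05 for Eda2r and -0.03 for Tnfrsf10b. Without 1 library, the ranges that crossed 0 in KO against WT were -0.02 to 0.1 for Bax, -0.08 to 0.01 for Trp53inp1 and -0.09 to 0.04 for Phlda3. In HET against WT they were -0.02 to 0.04 for Trp53inp1, -0.11 to 0.02 for Eda2r and -0.04 to 0.08 for Tnfrsf10b, and in KO against HET -0.08 to 0.02 for Bax. Member loci higher in KO against WT numbered 1, and 4 in the authors' matrix (Tnfrsf10b, Ccng1, Zmat3 and Trp53inp1); those lower numbered 2, and 0 there. Leaving out 1 library gave 1 to 2 higher and 2 to 2 lower. In KO against HET the member counts of 1 higher and 1 lower were 3 and 0 in the authors' matrix, and the lower count was 2 under 3 alternatives, quantile normalization, a common median and the replicate block; leaving out 1 library gave 1 to 3 higher and 0 to 2 lower. The member counts of 0 in HET against WT held under every alternative run.

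Over all loci in KO against WT, 3463 higher became 1844 with the stricter filter (1 FPKM in 5 libraries) and 6969 in the authors' matrix, and 1022 lower became 3801 after quantile normalization, 269 with the authors' matrix and 645 with the replicate block. Calls were higher in 77.2% of cases, in 73.1% with a common median, in 38.1% after quantile normalization and in 96.3% in the authors' matrix. Leaving out 1 library gave 3232 to 3620 higher and 675 (without WT4) to 1247 lower. In KO against HET, 3265 higher became 1772 with the stricter filter and 2092 after quantile normalization, and 794 lower became 3256 after quantile normalization, 217 with the authors' matrix, 409 with the replicate block and 451 with the compared genotypes alone; without 1 library there were 2837 to 3398 higher and 267 (without HET3) to 932 lower. In HET against WT the 1 higher locus became 0 with either other pseudocount, the stricter filter, the authors' matrix and the replicate block, and 2 without the filter, with quantile normalization and with the compared genotypes alone, and 0 lower became 1 in the authors' matrix and with the compared genotypes alone; without 1 library 0 to 2 were higher and 0 to 1 lower. Over the pathway lists, 4 higher became 0 without the filter, 2 with the stricter filter, 0 with a common median, 58 in the authors' matrix and 1 with sex as a covariate, and 5 lower became 14 after quantile normalization, 1 with the authors' matrix and 3 with the replicate block; without 1 library 0 to 8 were higher and 3 to 8 lower. The cause was not tested.

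The values gave no sign that the replicate numbers pair the libraries, which does not exclude a pairing. Deviations of same-numbered libraries from their genotype means correlated at -0.114 to 0.1, and those of different numbers at -0.115 to 0.106. With the replicate block Perp passed in KO against HET (-0.27 log2, limma-trend adjusted p = 0.0437), and no other member changed its call. The other-strand locus at Ccng1 could not be fitted in the authors' matrix, which is blank where FPKM is 0.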
